A study of Mus musculus with 17 samples.

Results

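The HoxC cluster is a run of 9 homeobox genes on mouse chromosome 15, from Hoxc13 to Hoxc4, and its expression was compared across the 4 groups of an RNA-seq study of YAP proteins in brain tumours. The members were the entries with the symbols Hoxc4, Hoxc5, Hoxc6, Hoxc8, Hoxc9, Hoxc10, Hoxc11, Hoxc12 and Hoxc13, 9 of the 53090 entries in each count table. The genes were selected on their RNA-seq counts in these same groups, so the differences between groups given for them describe that choice and are no independent test. All 12 RNA-seq libraries of the series were used; the series has 17 samples, and its 5 chromatin samples were not analysed here.

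The YAP-M-dIDR group (3 libraries) is labelled as overexpressing YAP-MΔIDR, with brain tumour tissue as its source and ES-derived neural progenitor cells as its tissue, so the labels leave the material of this group unresolved. The YAP-M group (4 libraries) is brain tumour tissue that followed in utero electroporation with YAP-M, which introduces DNA into cells of the embryonic brain. The NSC-YAP group (2 libraries) is ES-derived neural progenitor cells overexpressing YAP. The SVZ group (3 libraries) is labelled wild-type, although its tissue entry reads brain tumour; the subventricular zone, the usual meaning of SVZ, is the germinal layer beside the lateral ventricle. The sources used here do not give the strain, age and sex of the animals, the promoter driving the constructs, or whether separate animals or cultures stand behind the libraries. P-values therefore measure only the spread between these libraries, which may be technical in part or, in NSC-YAP, in whole. The X-inactivation transcript Xist and the Y-linked Ddx3y differed between libraries within YAP-M-dIDR, YAP-M and SVZ. The libraries of each of these groups thus did not all share a source.

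Hox genes encode transcription factors that give cells along the head-to-tail axis their position. Genes at the 3′ end of a cluster are used in anterior segments and genes at the 5′ end in posterior ones, and silent clusters are held under Polycomb repression. In the nervous system Hox genes are active in the hindbrain and spinal cord, while the forebrain develops largely without them; HoxC genes are known above all for motor neuron identity in the spinal cord and, at the posterior end, for skin and hair.

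HoxC transcripts were present in the YAP-M-dIDR and YAP-M libraries and at or near zero in the NSC-YAP and SVZ libraries. The 9 genes summed to 383, 274 and 487 counts in YAP-M-dIDR libraries 1, 2 and 3, and to 287, 184, 209 and 201 counts in YAP-M libraries 1 to 4. No HoxC read was counted in either NSC-YAP library, and the SVZ libraries held 1, 0 and 1. As CPM, counts relative to the library's total after scaling by edgeR's TMM factors, the sum averaged 16.7 ± 4.59 in YAP-M-dIDR (SD, n = 3) and 8.44 ± 1.66 in YAP-M (SD, n = 4). The lowest YAP-M-dIDR library, at 12.3 CPM, lay above the highest YAP-M library, at 10.6 CPM.

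These are low levels. Library totals ran from 20784130 to 25463303 counts, and 3 counts in a library, the level that a count of 0 allows, corresponded to 0.11 to 0.147 CPM; such floors and all intervals here cover counting error only. In bulk samples, fewer cells of a type and less RNA per cell cannot be told apart.

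The libraries of a group were not alike in other respects. Yap1 stood at 183, 838 and 1274 CPM in YAP-M-dIDR libraries 1 to 3, at 92.7 to 105 CPM in YAP-M, at 238 and 241 CPM in NSC-YAP and at 21.5 to 27.9 CPM in SVZ. YAP-M-dIDR library 3 had 22.7 CPM of the X-inactivation transcript Xist and 69.9 CPM of the Y-linked Ddx3y, whereas libraries 1 and 2 of that group had 288 and 396 CPM of Xist and at most 0.135 CPM of Ddx3y. YAP-M library 3 was likewise the one of its group with Ddx3y, at 81.7 CPM. Differences and levels of HoxC members that moved most without YAP-M-dIDR library 3 are given below with and without it.

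In mm10 coordinates, the build named in the submitters' processing notes, the members span chr15:102921103-103036852, 116 kb, all on the plus strand. Hoxc13 comes first (102921103 to 102928814), followed by Hoxc12 (102936757 to 102938609), Hoxc11 (102954427 to 102957708), Hoxc10 (102966796 to 102971893), Hoxc9 (102976439 to 102985099), Hoxc8 (102990607 to 102994111), Hoxc6 (102998257 to 103011881) and Hoxc4 (103018934 to 103036852). The Hoxc5 entry of the tables reaches from 102967443 to 103017429 and overlaps Hoxc10, Hoxc9, Hoxc8 and Hoxc6. The sources used here do not say how overlapping genes and strand were treated in counting, so reads in those overlaps may have been split or dropped.

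The cluster also encodes microRNAs, of which miR-196a is known for targeting Hox transcripts. The mature arms of the 2 hairpins inside the span are shown because they belong to the same locus; the sequences are from RefSeq on GRCm38.p6, 5′ to 3′, with the seed (bases 2 to 8) in capitals.
mmu-miR-196a-5p: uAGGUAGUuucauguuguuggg
mmu-miR-196a-2-3p: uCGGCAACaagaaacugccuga
mmu-miR-615-5p: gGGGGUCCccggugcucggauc
mmu-miR-615-3p: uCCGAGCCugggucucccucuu
The 4 seeds differ from one another. Both hairpin entries, Mir196a-2 and Mir615, had 0 counts in all 12 libraries; the libraries were made with an Illumina TruSeq RNA kit, and mature microRNAs were not measured.

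Hoxc4 was the one of the 9 members with an entry in the RefSeq promoter table. Its annotated start, at 103034395, lies 15.5 kb after the start of the Hoxc4 entry in the count tables. The 250 bases before that start (GRCm38.p6, chr15:103034145-103034394, plus strand) are printed with CpG dinucleotides, the sites of vertebrate DNA methylation, in capitals.
Hoxc4 upstream: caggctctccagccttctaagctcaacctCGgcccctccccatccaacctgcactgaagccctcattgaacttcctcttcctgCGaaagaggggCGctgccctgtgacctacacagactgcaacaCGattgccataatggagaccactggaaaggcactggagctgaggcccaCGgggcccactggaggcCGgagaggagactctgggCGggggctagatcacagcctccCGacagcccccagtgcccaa
This stretch holds 8 CpG. With the 50 bases after the start, the 300-base window holds 9, against a median of 7 over all 32851 promoters of the table, and 45.8% of them have at least as many. Its G and C content was 60.3%, against a median of 52.7%. Neither GGAATG, the core of the TEAD motif through which YAP is recruited to DNA, nor TGANTCA, the AP-1 motif, was found on either strand of the window; 14.7% and 7.81% of all promoters in the table hold them.

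**Figure D1:**
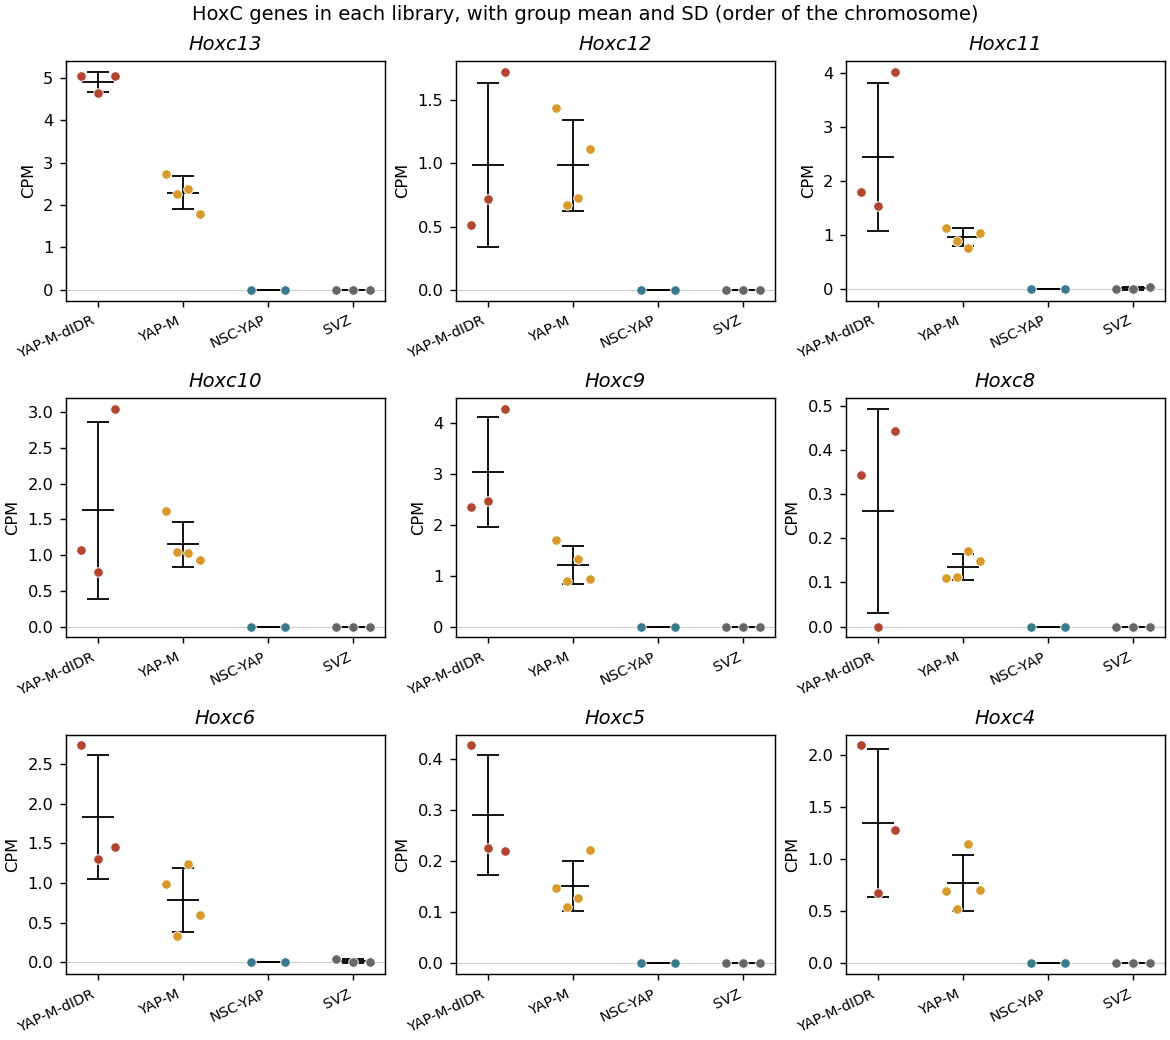
CPM of each HoxC gene, in chromosomal order, in every library (points, in the order of library numbers from left to right), with the group mean and SD as bars, for YAP-M-dIDR, YAP-M, NSC-YAP and SVZ. The YAP-M-dIDR points of Hoxc13 sit between 4.64 and 5.04 CPM, above the 4 YAP-M points, whereas those of Hoxc9 to Hoxc12 are spread, and the NSC-YAP points all lie at 0.

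The 5′ end of the cluster, Hoxc11 to Hoxc13, carried the largest share of the HoxC reads as counted in every YAP-M-dIDR and YAP-M library. Hoxc13, which drives keratin genes in the hair follicle and nail, was counted at 5.04, 4.64 and 5.04 CPM in YAP-M-dIDR libraries 1 to 3, against 2.72, 2.26, 2.39 and 1.78 CPM in YAP-M libraries 1 to 4. Its levels did not overlap between these groups. The YAP-M-dIDR mean was 4.91 ± 0.230 CPM (SD), the smallest spread among the members that averaged over 1 CPM in that group. This mean was 2.14 times as high in YAP-M-dIDR as in YAP-M, and the fitted log2 fold change was 1.10 ± 0.22 (SE).

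Hoxc12, its neighbour, which is also used in hair follicles, gave 0.513, 0.721 and 1.72 CPM in YAP-M-dIDR and 1.44, 0.667, 0.724 and 1.11 CPM in YAP-M. The groups overlapped, with means of 0.985 CPM in YAP-M-dIDR and 0.985 CPM in YAP-M. The fitted log2 difference was -0.00 ± 0.49 (SE), and without YAP-M-dIDR library 3 it was -0.67. The library that was highest in YAP-M-dIDR, library 3, alone exceeded the YAP-M libraries.

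Hoxc11, a posterior gene of the hindlimb and urogenital region, was counted at 1.80, 1.53 and 4.02 CPM in YAP-M-dIDR and at 1.14, 0.889, 0.767 and 1.04 CPM in YAP-M. Every YAP-M-dIDR library was above every YAP-M library, with library 3 far above the other two. The log2 fold change was 1.35 ± 0.41 (SE), and 0.79 without YAP-M-dIDR library 3.

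Between Hoxc12 and Hoxc11 lies Hotair, an antisense long noncoding RNA known from human cells for its association with Polycomb. It was read at 9, 6 and 7 counts in YAP-M-dIDR libraries 1 to 3 and at 12, 5, 10 and 0 counts in YAP-M libraries 1 to 4, and at 0 in all NSC-YAP and SVZ libraries. It was too low to enter the test, and its entry overlaps no HoxC member.

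In the middle of the cluster, Hoxc10, which takes part in lumbar spinal cord and hindlimb patterning, stood at 1.07, 0.766 and 3.05 CPM in YAP-M-dIDR and at 1.62, 1.04, 1.02 and 0.928 CPM in YAP-M. The groups overlapped; the log2 difference was 0.50 ± 0.50 (SE) and turned to -0.32 without YAP-M-dIDR library 3. Hoxc9, which sets thoracic motor column identity, was counted at 2.35, 2.48 and 4.28 CPM in YAP-M-dIDR and at 1.69, 0.889, 1.32 and 0.928 CPM in YAP-M. The lowest YAP-M-dIDR library was above the highest YAP-M library, the log2 fold change was 1.33 ± 0.35 (SE), and it was 1.00 without YAP-M-dIDR library 3. Hoxc8, a gene of brachial and thoracic segments, had 8, 0 and 10 counts in YAP-M-dIDR and 3, 3, 4 and 4 counts in YAP-M. Its ranges overlapped, and it was too low to enter the test.

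The anterior genes had a different leading library. Hoxc6, a gene of brachial motor neurons, stood at 2.74, 1.31 and 1.46 CPM in YAP-M-dIDR and at 0.993, 0.334, 1.24 and 0.594 CPM in YAP-M. Its groups were separated by a narrow gap, the log2 difference was 1.22 ± 0.48 (SE), and it did not pass the threshold. Hoxc4, a cervical gene also known for its part in antibody class switching in B cells, was counted at 2.09, 0.676 and 1.28 CPM in YAP-M-dIDR and at 0.699, 0.519, 1.15 and 0.705 CPM in YAP-M; the groups overlapped, with a log2 difference of 0.82 ± 0.45 (SE). For both genes YAP-M-dIDR library 1 was the highest, and without it the log2 differences were 0.81 for Hoxc6 and 0.36 for Hoxc4. Hoxc5, which acts in the phrenic motor column of the neck, had 10, 5 and 5 counts in YAP-M-dIDR and 4, 3, 3 and 6 counts in YAP-M, and its ranges overlapped.

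By library, 5 members (Hoxc8 to Hoxc12) were highest in YAP-M-dIDR library 3 and 4 (Hoxc4, Hoxc5, Hoxc6 and Hoxc13) in library 1. In the YAP-M group, 5 members (Hoxc9 to Hoxc13) were highest in library 1, and 3 (Hoxc4, Hoxc6 and Hoxc8) in library 3, the library with Ddx3y.

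Of the 9 members, 7 passed the filter of 1 CPM in at least 2 libraries, and Hoxc5 and Hoxc8 did not. Since the members that passed did so through the groups in which they were high, their counts of calls are a description. A gene counted as called where its adjusted p from edgeR was under 0.05 and its fitted log2 difference was 1 or more in either direction, in a fit over all 18329 genes tested. In YAP-M-dIDR over YAP-M, 3 of the 7 members tested (Hoxc9, Hoxc11 and Hoxc13) were called higher and 0 lower, where 6.78% of all genes tested were called higher and 9.61% lower; the median log2 fold change was 1.10 over the 7 members and -0.01 over all genes tested. Of the 9 members, 4 (Hoxc6, Hoxc9, Hoxc11 and Hoxc13) had every YAP-M-dIDR library above every YAP-M library, as did 22.5% of all genes tested. Without YAP-M-dIDR library 3, 1 member was called.

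Against a group in which a member had no count, its difference has only a lower bound, for which the group at 0 was set to 3 counts in all. In YAP-M-dIDR over NSC-YAP, all 7 members tested were called higher, where 27.4% of all genes tested were and 20.4% were called lower. Hoxc13 was at least 80.3-fold higher in YAP-M-dIDR than in NSC-YAP, Hoxc9 at least 49.6-fold and Hoxc11 at least 40.0-fold. The bounds of Hoxc6, Hoxc10, Hoxc4 and Hoxc12 lay from at least 30.2-fold down to at least 16.1-fold higher, and those of Hoxc5 and Hoxc8 were at least 4.79-fold and at least 4.32-fold higher.

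YAP-M tumours stood in the same relation to NSC-YAP cells at lower bounds. All 7 members tested were called higher in YAP-M over NSC-YAP, where 28.9% of all genes tested were and 21.6% were called lower. Hoxc13 was at least 37.4-fold higher in YAP-M, Hoxc9 at least 19.7-fold and Hoxc10 at least 18.9-fold. Hoxc12, Hoxc11, Hoxc6 and Hoxc4 lay from at least 16.3-fold down to at least 12.4-fold higher, and Hoxc5 and Hoxc8 were at least 2.50-fold and at least 2.19-fold higher.

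SVZ libraries gave 1 count of Hoxc6, in library 1, and 1 count of Hoxc11, in library 3, and none of the other members. In YAP-M-dIDR over SVZ all 7 members tested were called higher, where 26.9% of all genes tested were and 29.6% were called lower, and in YAP-M over SVZ all 7 were called higher, where 25.8% of all genes tested were and 28.9% were called lower. Hoxc13 was at least 105-fold higher in YAP-M-dIDR than in SVZ, and at least 49.1-fold higher in YAP-M than in SVZ. For Hoxc11 the ratio to the single SVZ count was 158 in YAP-M-dIDR (exact 95% interval from counting error, 27.9 to 6265) and 62.2 in YAP-M (10.9 to 2482). For Hoxc6 it was 119 in YAP-M-dIDR (20.97 to 4736) and 49.9 in YAP-M (8.71 to 1995).

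In NSC-YAP over SVZ both groups were at or under the floor, so no fold was computed. By edgeR 0 of the 7 members tested were called, where 17.5% of all genes tested were called higher and 27.6% lower. The absence of reads in the NSC-YAP libraries limits each member to at most 0.122 CPM per library there. These comparisons share groups, so they are not independent of one another.

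**Figure D2:**
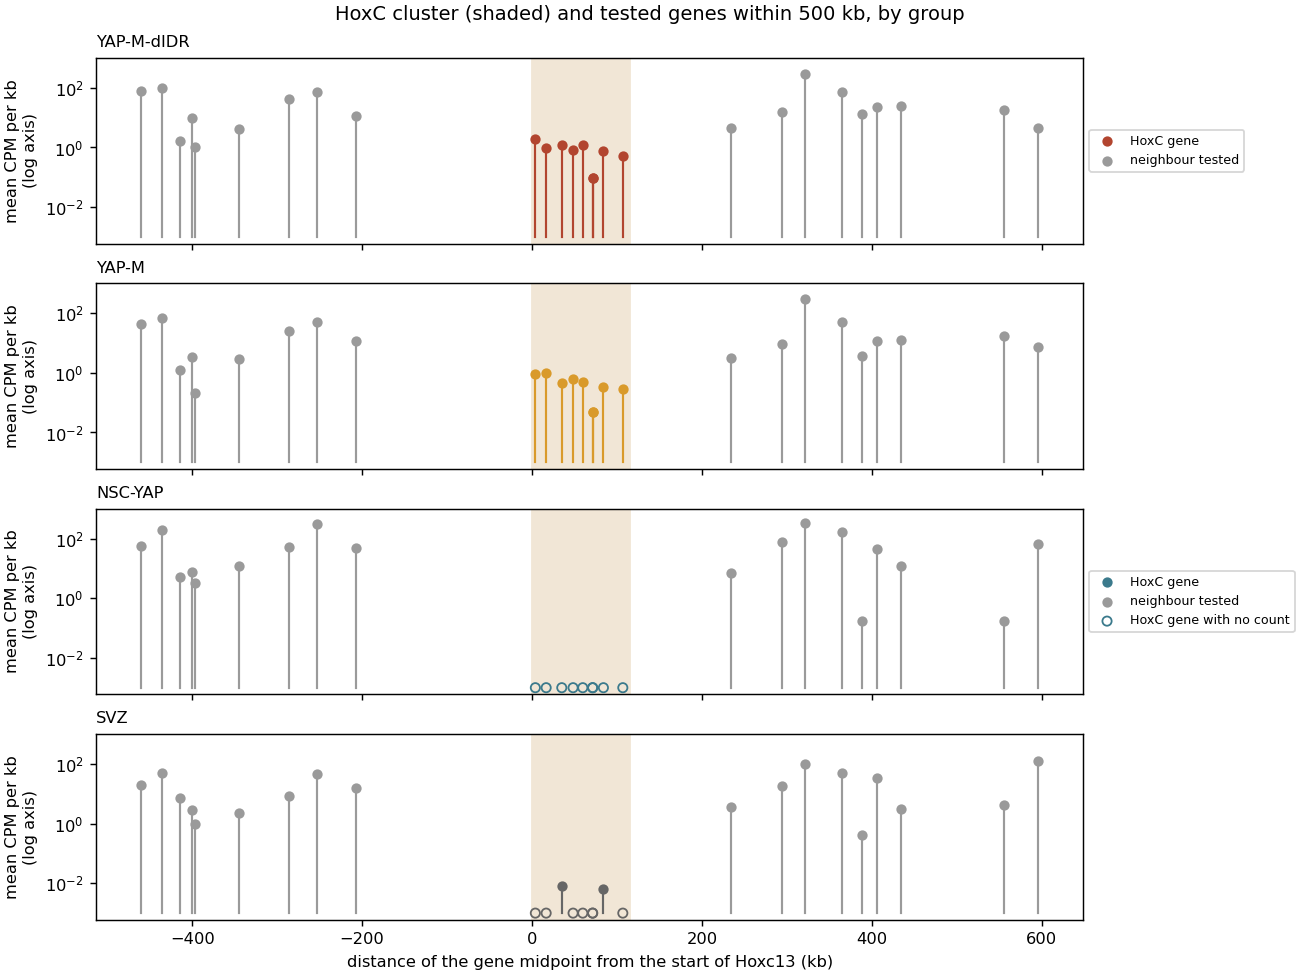
Mean CPM per kb of exon (log axis) of the HoxC genes (coloured, shaded span) and of the tested genes within 500 kb (grey), by distance of the gene's midpoint from the start of Hoxc13, in YAP-M-dIDR, YAP-M, NSC-YAP and SVZ. Hollow circles mark HoxC genes with no count in the group; the grey genes have values in all 4 panels, while all 9 HoxC genes of the NSC-YAP panel are hollow.

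Per kb of exon, the members can be ranked against each other. In YAP-M-dIDR Hoxc13 led at 1.99 ± 0.0936 CPM per kb (SD, n = 3), followed by Hoxc9 at 1.25, Hoxc11 at 1.21, Hoxc12 at 0.956, Hoxc10 at 0.852, Hoxc6 at 0.761 and Hoxc4 at 0.526 CPM per kb. Hoxc5 and Hoxc8 closed the order at 0.0943 and 0.0922 CPM per kb. Only the steps from Hoxc13 to Hoxc9 and from Hoxc4 to Hoxc5 separated neighbours whose ranges over libraries did not overlap. Much of this order rested on library 3. Over YAP-M-dIDR libraries 1 and 2 alone, Hoxc13 still led at 1.97 CPM per kb, followed by Hoxc9 at 0.994, but Hoxc6 came next at 0.839, above Hoxc11 at 0.823, Hoxc12 at 0.598 and Hoxc10 at 0.480 CPM per kb. Hoxc4, at 0.539 CPM per kb, then also stood above Hoxc10.

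In YAP-M the order began with Hoxc12 at 0.955 ± 0.349 and Hoxc13 at 0.930 ± 0.158 CPM per kb (SD, n = 4). Hoxc10 followed at 0.603, Hoxc9 at 0.497, Hoxc11 at 0.475, Hoxc6 at 0.328 and Hoxc4 at 0.299 CPM per kb, with Hoxc5 at 0.0493 and Hoxc8 at 0.0477. Here only Hoxc4 and Hoxc5 had ranges that did not overlap with their neighbour in the order. In YAP-M, Hoxc4, Hoxc5 and Hoxc6 stood below Hoxc9 to Hoxc13 in mean level per kb, whichever library was left out. In both groups Hoxc5 and Hoxc8 had the lowest means, also whichever library was left out. Reads in the overlaps of the Hoxc5 entry with Hoxc10, Hoxc9, Hoxc8 and Hoxc6 may have been split or dropped. That could lower these genes in every library, which leaving out a library cannot show.

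Shares of the HoxC reads put the same libraries on one scale, without regard to their total. The overlaps of the Hoxc5 entry fall in the middle and 3′ blocks, so the same limit holds for the sizes of these shares. The 5′ block of Hoxc11, Hoxc12 and Hoxc13 held 44.9%, 55.8% and 50.1% of the HoxC counts in YAP-M-dIDR libraries 1 to 3 and 50.2%, 56.0%, 43.5% and 52.7% in YAP-M libraries 1 to 4. The middle block of Hoxc8, Hoxc9 and Hoxc10 held 23.0%, 26.3% and 36.1% in YAP-M-dIDR and 32.4%, 29.9%, 28.2% and 26.9% in YAP-M. The 3′ block of Hoxc4, Hoxc5 and Hoxc6 held 32.1%, 17.9% and 13.8% in YAP-M-dIDR and 17.4%, 14.1%, 28.2% and 20.4% in YAP-M.

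For each of the 3 blocks the ranges of YAP-M-dIDR and YAP-M overlapped, so the split of the cluster between its ends did not separate these groups. Within YAP-M-dIDR, the 3′ block of library 1 (exact Clopper-Pearson 95% interval, 27.5 to 37.0%) lay outside the intervals of library 2 (13.5 to 22.9%) and library 3 (10.8 to 17.1%). Among single genes, Hoxc12 made up 3.13%, 5.84% and 8.01% of the HoxC counts in YAP-M-dIDR and 13.6%, 9.78%, 8.13% and 14.9% in YAP-M. Its share was lower in every YAP-M-dIDR library than in every YAP-M library, although 8.01% and 8.13% lie within each other's intervals. Hoxc13 held 30.8%, 37.6% and 23.4% of the HoxC counts in YAP-M-dIDR and 25.8%, 33.2%, 26.8% and 23.9% in YAP-M, with overlapping ranges.

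**Figure D3:**
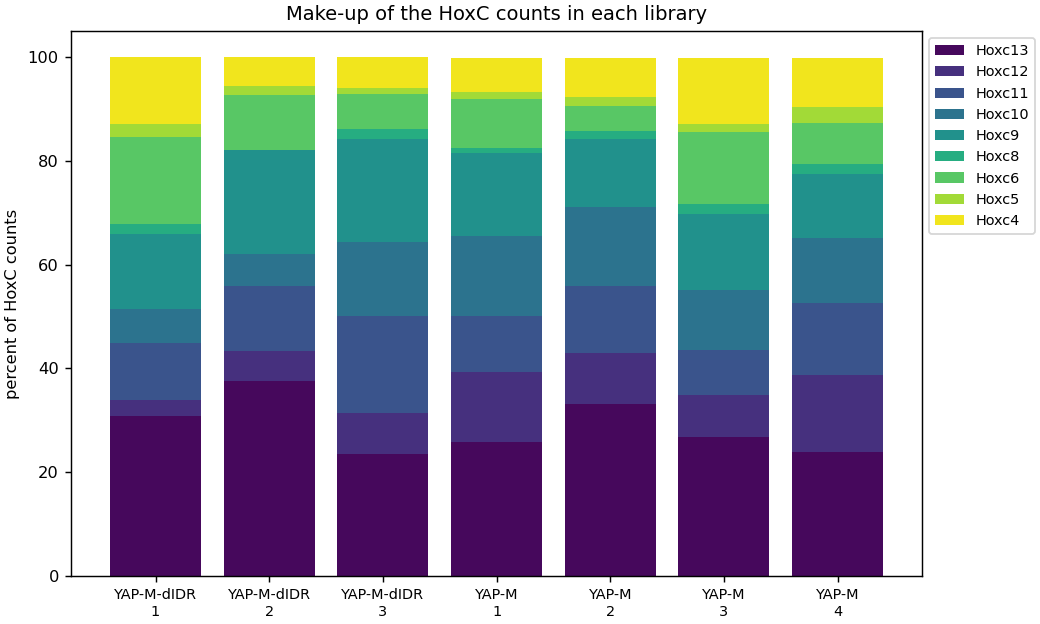
Percent of all HoxC counts in each YAP-M-dIDR and YAP-M library taken by each member, stacked in chromosomal order from Hoxc13 at the bottom to Hoxc4 at the top. Hoxc13 takes 23.4% to 37.6% in YAP-M-dIDR and 23.9% to 33.2% in YAP-M, and the top 3 segments, Hoxc6, Hoxc5 and Hoxc4, are widest in YAP-M-dIDR library 1.

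The 4 Hox clusters did not move together. In YAP-M-dIDR the HoxB genes summed to between 77.9 and 178 CPM, against 16.3 to 27.6 CPM in YAP-M, and the HoxD genes to between 4.01 and 37.4 CPM in YAP-M-dIDR, against 66.0 to 141 CPM in YAP-M. HoxA sums were 9.45 to 41.7 CPM in YAP-M-dIDR and 30.1 to 41.9 CPM in YAP-M. Over YAP-M, YAP-M-dIDR had 8 of 9 tested HoxB genes called higher, 6 of 6 HoxD genes called lower, and 0 HoxA genes called higher and 1 of 10 called lower. Over all genes tested, 6.78% were called higher and 9.61% lower in that comparison. Median log2 fold changes were 2.77 for HoxB, -2.51 for HoxD and -0.32 for HoxA, beside 1.10 for HoxC.

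**Figure D4:**
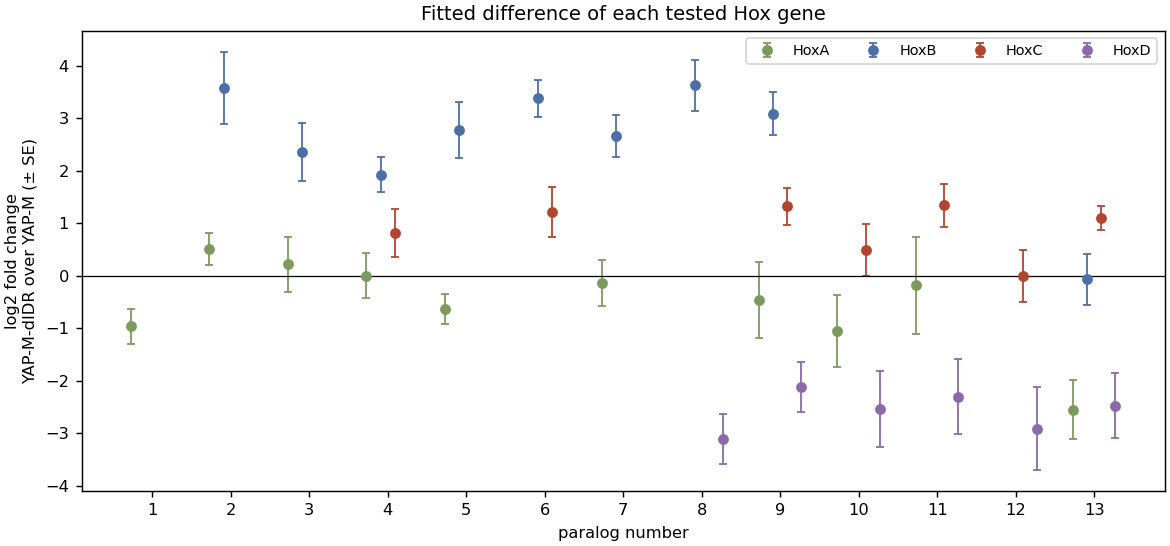
Fitted log2 fold change of YAP-M-dIDR over YAP-M for each tested Hox gene, by paralog number (x axis) and cluster (colour), with bars of 1 SE. HoxC points lie from -0.00 to 1.35, above the HoxD points and mostly below the HoxB points.

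Among all counts from the 4 clusters, HoxC genes made up 9.05%, 5.81% and 13.9% in YAP-M-dIDR libraries 1 to 3 and 6.08%, 3.27%, 4.95% and 5.69% in YAP-M libraries 1 to 4. The lowest YAP-M-dIDR share, 5.81%, was below the highest YAP-M share, 6.08%, so these ranges overlapped. In NSC-YAP the HoxA genes summed to 59.1 and 62.6 CPM, while HoxB and HoxC had no count and HoxD stood at 0.285 CPM in each library. HoxA was thus the one cluster above 1 CPM in NSC-YAP. In SVZ no cluster summed to more than 0.629 CPM in a library.

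Genes of the same paralog number set HoxC members beside their counterparts in the other clusters. Among group 13 genes, Hoxd13 averaged 11.98 CPM in YAP-M-dIDR and 66.6 CPM in YAP-M, Hoxa13 0.176 CPM in YAP-M-dIDR and 1.06 CPM in YAP-M, and Hoxb13 5.87 CPM in YAP-M-dIDR and 6.14 CPM in YAP-M. Over libraries, Hoxd13 ran from 2.30 to 25.7 CPM in YAP-M-dIDR and from 41.4 to 88.7 CPM in YAP-M. Hoxb13 ran from 1.75 to 8.74 CPM in YAP-M-dIDR and from 3.90 to 9.08 CPM in YAP-M. Hoxd13 was called lower (log2 fold change -2.47 ± 0.61 SE, edgeR adjusted p = 0.00793), as was Hoxa13 (-2.55 ± 0.56, edgeR adjusted p = 0.00614), and Hoxb13 was not called (-0.07 ± 0.49). Hoxc13, at 4.91 CPM in YAP-M-dIDR and 2.29 CPM in YAP-M, was the one group 13 gene called higher.

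Group 9 genes differed by cluster too. Hoxb9 averaged 42.5 CPM in YAP-M-dIDR and 4.96 CPM in YAP-M and was called higher (log2 fold change 3.09 ± 0.41, edgeR adjusted p = 0.00077). Hoxd9 averaged 1.28 CPM in YAP-M-dIDR and 5.58 CPM in YAP-M and was called lower (-2.12 ± 0.48, edgeR adjusted p = 0.0089). Hoxa9, at 2.85 CPM in YAP-M-dIDR and 3.92 CPM in YAP-M, was not called. Its YAP-M-dIDR libraries held 5, 33 and 155 counts, so library 3 led for Hoxa9 as it did for Hoxc9, and it also led for Hoxa10 (13, 62 and 271 counts) and Hoxa11 (1, 34 and 128 counts).

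The tested genes on either side of the cluster had counts in all 4 groups, for which the filter partly selects. None of the entries between Hoxc4 and the nearest tested gene after it had more than 9 counts over the 12 libraries. Within 500 kb of the outermost members lie 37 other entries, of which 18 were tested, 9 on each side; the nearest tested genes were Calcoco1, 199 kb before Hoxc13, and Smug1, a uracil-DNA glycosylase gene 116 kb after Hoxc4. Their summed level was 1625 to 1947 CPM in YAP-M-dIDR, 1342 to 1480 CPM in YAP-M, 3584 to 3607 CPM in NSC-YAP and 1342 to 1370 CPM in SVZ. Calcoco1, which encodes a receptor for selective autophagy, averaged 44.1 CPM in YAP-M-dIDR, 46.1 in YAP-M, 199 in NSC-YAP and 61.8 in SVZ, and Smug1 averaged 14.4 CPM in YAP-M-dIDR, 10.2 in YAP-M, 23.8 in NSC-YAP and 11.9 in SVZ. NSC-YAP cells, with no HoxC count, thus had the highest level of both nearest neighbours.

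In YAP-M-dIDR over YAP-M, 4 of the 18 neighbours were called higher and 0 lower, where 6.78% of all genes tested were called higher and 9.61% lower. The median log2 fold change of the 18 neighbours was 0.52. Over all genes tested the median was -0.01 in that comparison, 0.13 in YAP-M-dIDR over NSC-YAP, -0.01 in YAP-M-dIDR over SVZ, 0.10 in YAP-M over NSC-YAP, -0.04 in YAP-M over SVZ and -0.10 in NSC-YAP over SVZ. Tarbp2, a partner of Dicer in making small RNAs, averaged 45.4 ± 1.89 CPM in YAP-M-dIDR and 16.0 ± 0.56 CPM in YAP-M (SD, n = 3 and 4), a log2 fold change of 1.50 ± 0.08 (SE, edgeR adjusted p = 1.05e-05). Gpr84, a fatty acid receptor of myeloid cells, averaged 20.6 CPM in YAP-M-dIDR and 5.53 CPM in YAP-M (1.89 ± 0.29, edgeR adjusted p = 0.000521). Npff, a neuropeptide gene, averaged 1.02 CPM in YAP-M-dIDR and 0.217 CPM in YAP-M (2.20 ± 0.37, edgeR adjusted p = 0.000958). The fourth, Itga5, the fibronectin receptor subunit, stood at 110 CPM in YAP-M-dIDR and 54.6 CPM in YAP-M, and its log2 fold change of 1.00 ± 0.10 fell below the threshold in 11 alternatives.

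Towards NSC-YAP most neighbours that were called went the opposite way from the members. YAP-M-dIDR over NSC-YAP had 3 neighbours called higher and 10 called lower (median log2 fold change -1.01), beside 27.4% and 20.4% of all genes tested. YAP-M over NSC-YAP had 2 called higher and 13 called lower (median -1.60), beside 28.9% and 21.6% of all genes tested. Cbx5, which encodes the heterochromatin protein HP1 alpha, averaged 145 CPM in YAP-M-dIDR, 86.7 in YAP-M and 684 in NSC-YAP; it was called lower in YAP-M-dIDR (log2 fold change -2.24 ± 0.14, edgeR adjusted p = 1.74e-07) and in YAP-M (-2.98 ± 0.13, edgeR adjusted p = 1.29e-08). Called lower in both comparisons were also Pcbp2, Map3k12, Npff, Atf7, Atp5g2, Calcoco1, Copz1, Zfp385a and Pde1b, and in YAP-M over NSC-YAP also Tarbp2, Rpl39-ps and Smug1. The calls of Zfp385a and Pcbp2 in YAP-M-dIDR were lost in 13 and 5 alternatives, and those of Rpl39-ps and Tarbp2 in YAP-M in 5 and 3. Called higher were Itga5 in YAP-M-dIDR and, in both, Gpr84 and Nckap1l, both genes of blood-lineage cells, with Nckap1l at 85.8 CPM in YAP-M-dIDR, 81.5 in YAP-M and 0.795 in NSC-YAP.

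Towards SVZ, the neighbours gave 7 calls of higher and 2 of lower in YAP-M-dIDR (median 0.78), beside 26.9% and 29.6% of all genes tested. For YAP-M the neighbours gave 6 of higher and 4 of lower (median 0.24), beside 25.8% and 28.9% of all genes tested. Prr13, Rpl39-ps, Hnrnpa1, Gpr84, Itga5 and Nckap1l were called higher in both, and Tarbp2 in YAP-M-dIDR. Map3k12 and Pde1b were called lower in both, and Npff and Zfp385a in YAP-M. Pde1b, a phosphodiesterase gene of striatal neurons, was the neighbour with the lowest fold change, at 13.3 CPM in YAP-M-dIDR, 21.8 in YAP-M and 378 in SVZ (log2 fold change -4.83 ± 0.21, edgeR adjusted p = 1.21e-08 in YAP-M-dIDR; -4.11 ± 0.18, edgeR adjusted p = 1.57e-08 in YAP-M). In NSC-YAP over SVZ, where no HoxC member could be compared, 12 neighbours were called higher and 2, Gpr84 and Nckap1l, lower (median 1.71). Over all genes tested, 17.5% were called higher and 27.6% lower there. The call of Gpr84 was lost in 11 alternatives. Inside the span, 7 further entries are not HoxC genes, 2 of them had any count, and none passed the filter.

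HOX proteins bind DNA with TALE homeodomain cofactors of the PBX, MEIS and PKNOX families, all 9 of which were tested. In YAP-M-dIDR over YAP-M 1 was called higher and 0 lower: Meis3, at 33.1 CPM in YAP-M-dIDR and 16.4 CPM in YAP-M (log2 fold change 1.01 ± 0.17, edgeR adjusted p = 0.000866), which fell below the threshold in 10 alternatives. Of all genes tested, 6.78% were called higher and 9.61% lower in that comparison. No cofactor was called higher in YAP-M-dIDR or YAP-M over NSC-YAP or SVZ. In YAP-M-dIDR 5 were called lower over NSC-YAP (20.4% of all genes tested) and 5 over SVZ (29.6%). In YAP-M 5 were called lower over NSC-YAP (21.6%) and 4 over SVZ (28.9%). The shares of all genes tested called higher were 27.4%, 26.9%, 28.9% and 25.8% in these comparisons, in the same order. Meis1 averaged 2.31 CPM in YAP-M-dIDR, 4.61 in YAP-M, 42.3 in NSC-YAP and 10.9 in SVZ. Its log2 fold change over NSC-YAP was -4.19 ± 0.30 in YAP-M-dIDR (edgeR adjusted p = 4.49e-07) and -3.20 ± 0.26 in YAP-M (edgeR adjusted p = 1e-06). In NSC-YAP over SVZ 2 cofactors were called higher and 0 lower, where 17.5% of all genes tested were called higher and 27.6% lower. The median log2 fold change of the 9 was -0.33 in YAP-M-dIDR over YAP-M, -1.07 in YAP-M-dIDR over NSC-YAP, -1.19 in YAP-M-dIDR over SVZ, -1.25 in YAP-M over NSC-YAP, -0.81 in YAP-M over SVZ and -0.01 in NSC-YAP over SVZ.

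Known activators of Hox clusters, the CDX factors and the trithorax, DOT1L and UTX-type enzymes, gave 8 tested genes of 11. Cdx2 and Cdx4 were at 0 in YAP-M-dIDR, NSC-YAP and SVZ. The shares of all genes tested are those given for the cofactors, 6.78% to 28.9% called higher and 9.61% to 29.6% called lower. In YAP-M-dIDR over YAP-M, Men1, a subunit of the MLL complexes, was called higher (158 CPM in YAP-M-dIDR and 77.6 in YAP-M; log2 fold change 1.02 ± 0.09, edgeR adjusted p = 3.07e-05), a call that was lost in 10 alternatives. Kdm6a, a demethylase of the Polycomb mark, was called lower (32.9 CPM in YAP-M-dIDR and 68.9 in YAP-M; -1.07 ± 0.26, edgeR adjusted p = 0.00682) and was lost in 4 alternatives. The counts called higher and lower were 1 and 1 in YAP-M-dIDR over NSC-YAP (27.4% and 20.4% of all genes tested). In YAP-M-dIDR over SVZ they were 1 and 0 (26.9% and 29.6%). They were 0 and 2 in YAP-M over NSC-YAP (28.9% and 21.6%) and 2 and 0 in YAP-M over SVZ (25.8% and 28.9%). In NSC-YAP over SVZ they were 1 and 0 (17.5% and 27.6%). Medians of the list lay between -0.63 (YAP-M over NSC-YAP) and 0.58 (NSC-YAP over SVZ).

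All 15 Polycomb genes of the list, which keep unused Hox clusters silent, were tested. Here too the shares of all genes tested are those given for the cofactors, 6.78% to 28.9% called higher and 9.61% to 29.6% called lower. In YAP-M-dIDR over YAP-M, Cbx2, a reader subunit of Polycomb repressive complex 1, was the one called, at 22.9 ± 5.48 CPM in YAP-M-dIDR, against 4.40 ± 1.03 CPM in YAP-M (SD, n = 3 and 4; log2 fold change 2.38 ± 0.20, edgeR adjusted p = 2.81e-05). Where HoxC genes were at or near 0, Cbx2 stood at 20.5 CPM (NSC-YAP) and 4.61 CPM (SVZ). Its part in the HoxC levels was not tested. Over NSC-YAP, 0 genes of the list were higher and 6 lower by this rule in YAP-M-dIDR (27.4% and 20.4% of all genes tested). In YAP-M over NSC-YAP the counts were 0 and 8 (28.9% and 21.6%). Over SVZ the counts were 3 higher and 4 lower in YAP-M-dIDR (26.9% and 29.6%) and 4 and 3 in YAP-M (25.8% and 28.9%). In NSC-YAP over SVZ they were 6 and 0 (17.5% and 27.6%). Medians of the list lay between -1.03 (YAP-M over NSC-YAP) and 0.94 (NSC-YAP over SVZ), and that of YAP-M-dIDR over YAP-M was -0.30.

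Levels of marker genes of other cell types moved with the groups as well. The fibroblast list (10 genes) summed to 1676, 992 and 479 CPM in YAP-M-dIDR libraries 1 to 3 and to 1338, 1338, 491 and 1577 CPM in YAP-M libraries 1 to 4, against 88.5 to 91.6 CPM in NSC-YAP and 237 to 282 CPM in SVZ. Every YAP-M-dIDR and YAP-M library had a higher sum than every NSC-YAP and SVZ library, and in YAP-M-dIDR and in YAP-M the library with Ddx3y, library 3, was the lowest. The part of these cells in the HoxC levels was not tested.

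The skin and hair keratinocyte list (9 genes) summed to 41.0, 36.2 and 32.2 CPM in YAP-M-dIDR libraries 1 to 3 and to 9.60, 5.71, 19.6 and 7.68 CPM in YAP-M libraries 1 to 4. It stood at 8.76 and 9.18 CPM in NSC-YAP and at 22.7 to 27.6 CPM in SVZ. Krt5 and Krt71 had no count in YAP-M-dIDR or YAP-M, and Krt25 and Dsg3 none in YAP-M-dIDR. Krt14, a basal epidermal keratin, averaged 30.7 CPM in YAP-M-dIDR and 5.90 CPM in YAP-M (log2 fold change 2.38 ± 0.59, edgeR adjusted p = 0.00893). The keratinocyte sum was thus higher in every YAP-M-dIDR library than in every YAP-M library, as was Hoxc13. Most of that sum in YAP-M-dIDR came from Krt14. In YAP-M-dIDR over YAP-M, 5 genes of the list were tested, with 2 calls of higher and 0 of lower. Of all genes tested, 6.78% were called higher and 9.61% lower in that comparison. The median log2 fold change of the 5 genes was nonetheless -0.42, so the sum did not describe the list gene by gene. The part of keratinocytes in the level of Hoxc13 was not tested.

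Markers of spinal motor neurons (7 genes), the neurons in which HoxC genes are best known, summed to 1.08 to 2.99 CPM in YAP-M-dIDR, 4.34 to 11.6 CPM in YAP-M, 4.36 to 4.97 CPM in NSC-YAP and 33.2 to 43.6 CPM in SVZ. Their sum was highest in SVZ, and every YAP-M-dIDR library was below every YAP-M library. Mnx1, the defining motor neuron factor, averaged 0.0150 CPM in YAP-M-dIDR and 0.0940 CPM in YAP-M. It had no count in SVZ, so the SVZ sum came from the other genes of the list. Macrophage markers (7 genes) summed to 1974 to 2267 CPM in YAP-M-dIDR and 1665 to 2527 CPM in YAP-M, against 41.4 to 43.6 CPM in NSC-YAP and 215 to 282 CPM in SVZ; their ranges in YAP-M-dIDR and YAP-M overlapped, and their part in the HoxC levels was not tested.

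Forebrain identity genes (10) were detected beside the HoxC genes. They summed to 170 to 196 CPM in YAP-M-dIDR, 158 to 215 CPM in YAP-M, 119 to 122 CPM in NSC-YAP and 255 to 277 CPM in SVZ. Gene by gene, YAP-M-dIDR over SVZ gave 2 calls of higher and 7 of lower among these 10 (median log2 fold change -2.17). Of all genes tested, 26.9% were called higher and 29.6% lower in that comparison. Neural progenitor markers (8) summed to 2918 to 3948 CPM in YAP-M-dIDR, 2077 to 2645 CPM in YAP-M, 7765 to 8052 CPM in NSC-YAP and 1029 to 1243 CPM in SVZ. The progenitor sum was higher in YAP-M-dIDR than in YAP-M, but most calls among the 8 genes went the other way. YAP-M-dIDR over YAP-M gave 1 call of higher and 3 of lower (median log2 fold change -0.32), beside 6.78% and 9.61% of all genes tested. For YAP-M-dIDR over SVZ there were 3 calls of higher and 3 of lower (median -0.34), beside 26.9% and 29.6% of all genes tested. Sox2, the defining gene of the progenitor list, averaged 9.95 CPM in YAP-M-dIDR, 25.2 in YAP-M, 488 in NSC-YAP and 84.4 in SVZ, so it was lowest in YAP-M-dIDR and YAP-M.

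The genes most like the cluster over the 12 libraries were sought outside the Hox clusters by the root mean square (RMS) difference between centred log2(CPM + 1) profiles, with the mean of the 7 tested members as the pattern. The 8 closest were Ergic1, Ap2a2, Gm13552, Bysl, Slbp, Arxes2, Utp4 and Wdr1, with RMS differences of 0.167 to 0.193 log2 units, against a median of 0.915 over all genes tested. All 8 were expressed in NSC-YAP and SVZ too, for example Ergic1 at 269 CPM in YAP-M-dIDR, 214 in YAP-M, 109 in NSC-YAP and 94.4 in SVZ. The pseudocount decided this list, since for low genes log2(CPM + 1) compresses the difference to 0. With log2(CPM + 0.1) the 8 closest were Card10, Gm43428, Gm5133, Rin3, Col4a1, AC160966.2, Csf1 and Ctsz, with RMS differences of 0.351 to 0.396, and 0 of the 8 were shared.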

How the data were processed

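RNA-seq was measured in 12 libraries. Groups and replicate numbers were read from the titles; the count column of NSC-YAP library 2 is headed YAP_2, and its group was taken from the title. Each library has its own deposited table of raw counts, whole numbers by gene whose totals differ between libraries. Reads were aligned with TopHat2 to mm10, per the submitters' processing notes. The sources used here give no version of it, no counting program, no rule on strand or multiply mapping reads, and no annotation release. Entries that share a symbol (453) were summed, leaving 52850 symbols.

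CPM values used TMM-scaled library sizes (factors 0.826 to 1.13). Genes with at least 1 CPM, by plain totals, in at least 2 libraries were tested in R 4.3.3 with edgeR 4.0.16 (quasi-likelihood test), with 1 coefficient for each of the 4 groups over all 12 libraries and Benjamini-Hochberg adjustment over 18329 genes. The script was tested on simulated data. Values after ± are SE for log2 fold changes and SD for levels. No p-value is given for HoxC members. Tried as alternatives were testing without a filter, a minimum of 5 CPM, median-ratio scaling, DESeq2 1.42.0, a replicate block, the compared groups alone, adjusted p alone and leaving out each library. Replicates of a group differed by more than sampling noise (chi-square per gene 4.18 to 84.9).

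The members, gene lists and alternatives were chosen with earlier results of these data known. Named were all members, every called neighbour without a predicted name, up to 4 genes of a list with the smallest adjusted p in a comparison, paralogs of the same number, and the 8 genes nearest in profile. Sox2 and Mnx1 were named as defining markers whatever their p. Some genes that these rules name are not reported here. Levels are compared between genes only per kb of exon. Sequences are RefSeq's, from GRCm38.p6. Plotting used matplotlib 3.10.9 under Python 3.11.15.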

Additional observations from a re-analysis of the deposited data

Results flagged for a closer look

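Among the HoxC genes, Hotair and the 18 tested neighbours, 28 genes in all, 2 had a YAP-M library that stood apart from the other 3 of its group; chance flags about 1 in 20 groups of 4. Hoxc10 reached 1.62 CPM in YAP-M library 1, where the other YAP-M libraries lay between 0.928 and 1.04 CPM. Gpr84 reached 9.34 CPM in YAP-M library 2, where the others lay between 4.05 and 4.56 CPM. In YAP-M-dIDR over YAP-M, the log2 difference of Hoxc10 was 0.50, and 0.70 without YAP-M library 1; that of Gpr84 was 1.89, and 2.27 without YAP-M library 2.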

How the results depend on the processing

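No called result changed direction. Of the members not called in YAP-M-dIDR over YAP-M, Hoxc10 had a log2 difference of 0.50, and of -0.32 without YAP-M-dIDR library 3, and Hoxc12, at -0.00, ranged from -0.67 to 0.31 over the alternatives. Of the counts of called genes, 439 alternative values stayed within 1.5 times the reported count and 17 did not. Requiring adjusted p under 0.05 with no minimum fold moved, in YAP-M-dIDR over YAP-M, all genes called to 7967 from 3003, neighbours to 15 from 4, and cofactors and regulators to 20 from 4. The cofactors and regulators called moved to 21 from 13 in YAP-M-dIDR over NSC-YAP, to 29 from 13 in YAP-M-dIDR over SVZ, to 26 from 15 in YAP-M over NSC-YAP, to 23 from 13 in YAP-M over SVZ and to 22 from 9 in NSC-YAP over SVZ, and the neighbours to 15 from 9 in YAP-M-dIDR over SVZ. A minimum of 5 CPM left 1 member to test, and so 1 member called in each comparison of YAP-M-dIDR or YAP-M with another group, against 3 in YAP-M-dIDR over YAP-M and 7 in the others; it left 2 neighbours called in YAP-M-dIDR over YAP-M.

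Leaving out 1 library gave 1 to 3 members called in YAP-M-dIDR over YAP-M, with 1 without YAP-M-dIDR library 3, the lost ones being Hoxc9 and Hoxc11; Hoxc11 also lost its call without YAP-M library 3, and Hoxc13 without YAP-M library 4, at a log2 fold change of 0.97. All genes called in that comparison ranged from 2475 to 3793, neighbours from 3 to 4 and cofactors and regulators from 3 to 5. In the 4 comparisons with NSC-YAP or SVZ as the lower group, 7 members were called whichever library was left out.

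Replicate numbers did not pair the YAP-M-dIDR and YAP-M libraries: deviations from the group means correlated at 0.00106, 0.386 and 0.124 for numbers 1, 2 and 3, and not every library correlated best with its own number. With the replicate block, 0 members were called in YAP-M-dIDR over YAP-M, with log2 fold changes of 1.21 for Hoxc9, 1.25 for Hoxc11 and 1.00 for Hoxc13 (without the block 1.33, 1.34 and 1.10), while 2925 genes were called in all.

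The low counts limit these results: Hoxc5 and Hoxc8 had at most 10 counts in a library, and levels in NSC-YAP and SVZ are known only as upper bounds, except those of Hoxc6 and Hoxc11 in SVZ, which rest on 1 count each.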
